A study of Homo sapiens with 6 samples.

Results

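The 33 genes described here encode the enzymes and regulators of cholesterol and fatty acid synthesis. They were taken by gene name from a table of 56303 genes, all 33 were found, and all 33 passed the filter on low counts that left 23689 genes for testing. RNA was sequenced from cultures of AGS, a human cell line established from a gastric adenocarcinoma. The groups were 3 libraries of cells given an siRNA against SRSF2 (siSRSF2) and 3 libraries of cells labelled wild-type (WT). No label states a control siRNA for the WT cells or separate cultures for the replicates. The p-values therefore reflect only how far these libraries spread, which may be technical. Sample titles read siSRSF, and the genotype label gives SRSF2 as the target.

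Sterol and fatty acid synthesis both start from acetyl-CoA and are governed by the sterol regulatory element-binding proteins (SREBPs), made from SREBF1 and SREBF2. When sterols are plentiful, INSIG proteins hold the SREBP precursors and their escort SCAP in the endoplasmic reticulum. When sterols fall, SCAP carries them to the Golgi, where proteases release a fragment that enters the nucleus and binds sterol regulatory elements. The product of SREBF2 acts mostly on cholesterol genes, and the main products of SREBF1 act mostly on fatty acid genes. Read counts per gene measure neither that cleavage nor splice forms.

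In siSRSF2 cells, SREBF1, SREBF2, INSIG1 and INSIG2 were higher, as were 5 of the 8 genes from acetyl-CoA to squalene. Of the 10 genes from squalene to cholesterol, 3 were higher and 5 lower, and against a change of 1.2-fold 3 were higher and 2 lower. Of the 33 genes, 26 passed the test (edgeR adjusted p under 0.05), where 59.1% of all tested genes did. Of these, 17 were higher and 9 lower, against 30.1% higher and 29.0% lower among all tested genes. The median log2 fold change, siSRSF2 over WT, was 0.21 for the 33 genes and 0.02 for all tested genes. The 3 libraries of each group did not overlap in 27 of the 33 genes, which was so for 63.8% of all tested genes. Changes over 2-fold were found in 7 risen genes and 1 fallen gene, where 13.4% and 5.91% of all tested genes rose or fell so far. Tested against a change of 1.2-fold, 17 of the 33 passed, 15 higher and 2 lower, where 44.4% of all tested genes passed, 23.5% higher and 20.9% lower. In bulk RNA, fewer cells of a type and less RNA per cell cannot be told apart.

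**Figure D1:**
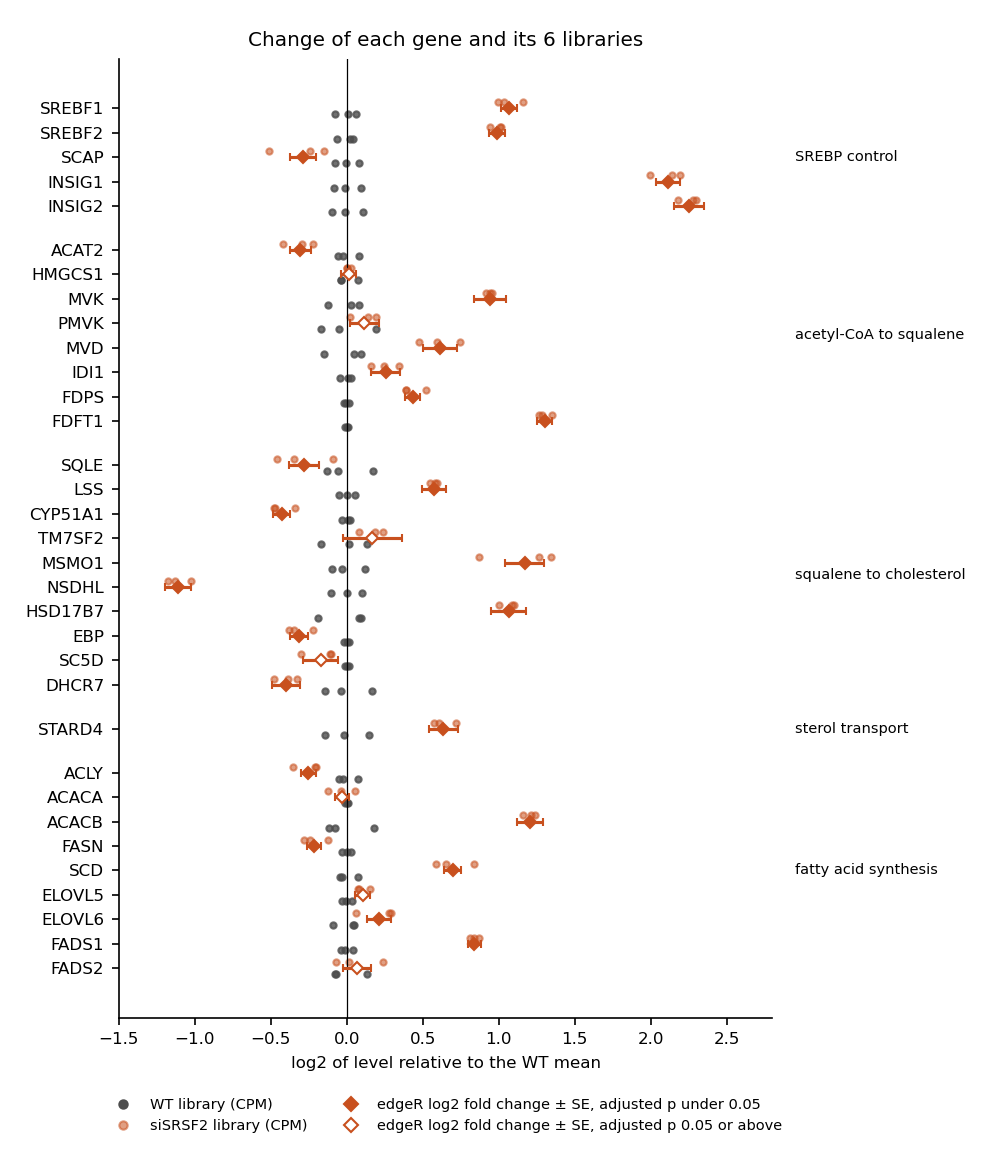
Levels of the 33 genes relative to the WT mean (horizontal axis, log2), with 3 WT libraries (grey) and 3 siSRSF2 libraries (orange) as points and the edgeR log2 fold change ± SE as a diamond, open where the adjusted p was 0.05 or above. INSIG1 and INSIG2 lie farthest to the right, at 2.11 and 2.25, and NSDHL farthest to the left, at -1.11.

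Total counts ranged from 47518943 to 50021152 in WT and from 26610937 to 36651623 in siSRSF2 libraries, and 3 counts corresponded to between 0.0630 and 0.110 CPM (counts scaled to TMM-adjusted library size). SRSF2 itself was at 45.0 ± 1.19 CPM in WT and 22.7 ± 1.83 CPM in siSRSF2 (SD, n = 3 per group; log2 fold change -0.98, SE 0.064, edgeR adjusted p = 4.39e-13). Of 7 epithelial markers, KRT8 and KRT18 stood at 3236 and 1099 CPM in WT, while CDH1 was at 0.219 CPM. Of the 7, 2 rose (ELF3 from 8.37 to 51.4 CPM and CLDN4 from 1.45 to 4.99 CPM), KRT8 fell and 4 did not pass. They summed, mostly from KRT8, to 4136 to 4555 CPM in WT and 3736 to 3996 in siSRSF2. Of 8 fibroblast and endothelial markers, 4 rose and 2 fell, with sums of 23.2 to 24.6 CPM in WT and 49.7 to 56.6 in siSRSF2, and none was at 0 in every library. Of the leukocyte markers, CD3E was at 0 in every WT library, and CD68 stood at 24.1 CPM in WT and 25.5 CPM in siSRSF2 and did not pass the test. Of 7 hepatocyte and adipocyte markers, ALB and TTR were at 0 in every library, and the 7 summed to 0.832 to 1.28 and 2.13 to 2.34 CPM. The part of these markers in the results below was not tested.

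The promoter sequences of 5 members are shown because all 5 carry CCAAT, the letters that the SREBP partner NF-Y is known to bind, and because 3 of these genes rose and 2 fell. Of the 5, SREBF2 and INSIG1 also carry CACNCCAC, a core of the sites SREBPs are known to bind. They were read from the RefSeq promoter table (GRCh38.p14), which matched 29 of the 33 genes, with 250 bases before and 50 after each start site. ACAT2, FASN, FDFT1 and SQLE were not matched. Only bases outside annotated UTRs are printed, 5′ to 3′ on the gene's strand. Capitals mark CACNCCAC (with the AT that precedes it in the longer sterol regulatory element motif, where present), CCAAT or CACGTG on either strand, so that CCAAT on the opposite strand reads ATTGG.
SREBF2, chr22:41832855-41833078, plus strand, 224 bases, rose: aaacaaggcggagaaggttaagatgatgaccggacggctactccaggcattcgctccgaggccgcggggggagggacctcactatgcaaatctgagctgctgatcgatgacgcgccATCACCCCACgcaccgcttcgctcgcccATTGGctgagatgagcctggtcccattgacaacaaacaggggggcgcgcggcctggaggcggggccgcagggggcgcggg
INSIG1, chr7:155297628-155297775, plus strand, 148 bases, rose: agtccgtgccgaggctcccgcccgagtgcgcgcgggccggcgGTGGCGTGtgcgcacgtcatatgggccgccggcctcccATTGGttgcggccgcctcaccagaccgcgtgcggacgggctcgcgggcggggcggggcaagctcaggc
MSMO1, chr4:165327419-165327622, plus strand, 204 bases, rose: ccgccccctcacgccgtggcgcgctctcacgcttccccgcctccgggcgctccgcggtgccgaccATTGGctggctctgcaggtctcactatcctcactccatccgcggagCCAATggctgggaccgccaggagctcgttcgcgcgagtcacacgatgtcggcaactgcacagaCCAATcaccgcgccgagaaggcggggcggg
NSDHL, chrX:152830813-152830966, plus strand, 154 bases, fell: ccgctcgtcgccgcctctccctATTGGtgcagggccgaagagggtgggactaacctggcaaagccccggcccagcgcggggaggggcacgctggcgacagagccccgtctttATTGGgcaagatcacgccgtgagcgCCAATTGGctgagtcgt
DHCR7, chr11:71448436-71448643, minus strand, 208 bases, fell: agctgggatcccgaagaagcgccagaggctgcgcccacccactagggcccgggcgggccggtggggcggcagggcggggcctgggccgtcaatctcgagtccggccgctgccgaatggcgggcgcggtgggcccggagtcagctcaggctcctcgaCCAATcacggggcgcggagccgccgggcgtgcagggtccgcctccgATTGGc

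The longer motif, which is CACNCCAC preceded by AT and has the letters of the classical sterol regulatory element, was found in the promoter window of SREBF2 alone among the 29 genes, and in 0.190% of the 27305 genes of the RefSeq table. In SREBF2 it starts at position -134 from the start site. Its shorter core CACNCCAC was present in 6 of the 29 genes (20.7%; 7.05% of all genes), namely SREBF2, INSIG1, SCD, IDI1, ACACA and SC5D. Of these 6, 4 rose, none fell and 2 did not pass the test. CCAAT was present in 22 of the 29 genes (75.9%; 39.7% of all genes), of which 12 rose, 4 fell and 6 did not pass. Of all 33 genes, whatever their motifs, 51.5% rose and 27.3% fell, where 30.1% and 29.0% of all tested genes did. Whether genes with a motif changed otherwise than the rest was not tested. CACGTG, an E-box, was present in 5 of 29 (17.2%; 8.78% of all genes). A gene counts as holding a motif if any of its windows does, and the motifs were chosen after the changes were known. A match describes the letters only.

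The largest rises of the 33 genes were those of the INSIG genes, whose products retain SCAP. Levels of INSIG2, on chromosome 2 (118088452 to 118110997, GRCh38 positions, plus strand), were 3.67, 3.90 and 4.24 CPM in the WT libraries and 19.3, 19.1 and 17.9 CPM in the siSRSF2 libraries. All siSRSF2 libraries lay far above all WT libraries, at a fold of 4.76 (log2 fold change 2.25, SE 0.097, edgeR adjusted p = 1.01e-16). The paralog INSIG1, on chromosome 7 (155297776 to 155310235), was at 7.64, 8.21 and 7.27 CPM in WT and at 34.0, 35.2 and 30.8 CPM in siSRSF2. It too separated the groups without overlap (log2 fold change 2.11, SE 0.079, edgeR adjusted p = 6.10e-18). Among the 23689 genes tested, INSIG2 ranked 701 and INSIG1 839 in order of rise.

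Both SREBP genes rose, each by about 2-fold. SREBF1, on chromosome 17 (17810399 to 17837002), was at 46.7, 42.5 and 45.1 CPM in WT and at 89.3, 99.9 and 91.9 CPM in siSRSF2 (a log2 fold change of 1.07 with an SE of 0.054, edgeR adjusted p = 2.95e-15). SREBF2, on chromosome 22 (41833079 to 41907308), was at 34.5, 36.7 and 37.1 CPM in WT and at 72.5, 72.9 and 69.4 CPM in siSRSF2 (log2 fold change 0.99, SE 0.053, edgeR adjusted p = 1.01e-14). The groups did not overlap in either gene. SREBF1 shares 6.9% of its exon bases with RAI1 (0.01 log2 units), and SREBF2 3.7% with RP5-821D11.7 (0.76 log2 units), both on the opposite strand. SCAP, which escorts both precursors, moved the other way from the SREBP genes and by less. It was at 18.9, 16.9 and 17.8 CPM in WT and at 12.5, 15.1 and 16.1 CPM in siSRSF2 (log2 fold change -0.29, SE 0.086, edgeR adjusted p = 0.00558). The lowest siSRSF2 library lay well below the other siSRSF2 libraries, and without it, siSRSF2 replicate 1, the fall of SCAP no longer passed (at -0.20 log2 units, edgeR adjusted p = 0.0555). It also did not pass with scaling by library totals (-0.16, edgeR adjusted p = 0.145) or when tested against a change of 1.2-fold (edgeR adjusted p = 0.297).

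Per exon length, the order within the regulators changed. In WT the levels in RPKM (CPM per kilobase of exon) were 5.58 ± 0.260 for SREBF1, 4.78 ± 0.190 for SREBF2, 2.83 ± 0.157 for SCAP, 2.11 ± 0.129 for INSIG1 and 0.996 ± 0.0718 for INSIG2 (SD, n = 3). In siSRSF2 they were 11.7 ± 0.684, 9.47 ± 0.254, 2.31 ± 0.290, 9.13 ± 0.625 and 4.75 ± 0.199. SCAP passed from the third of the 5 to the lowest, and the means of INSIG1 and SREBF2 lay closer together than the SD of INSIG1.

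**Figure D2:**
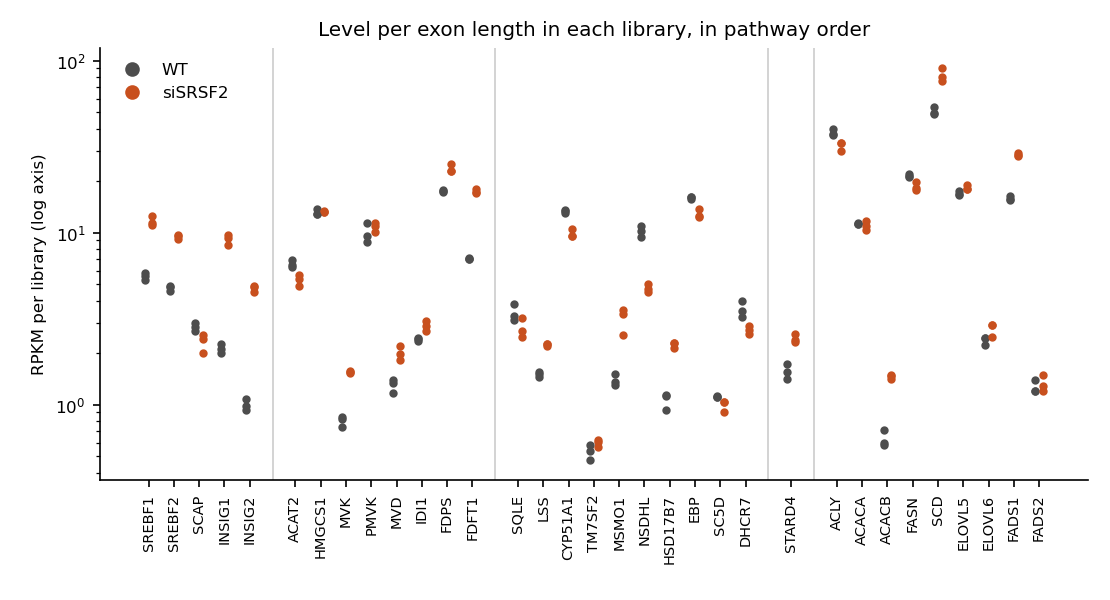
RPKM of each gene in each library (vertical log axis), with WT in grey and siSRSF2 in orange, and genes in pathway order from SREBP control to fatty acid synthesis. SCD has the highest level in both groups (50.8 RPKM in WT and 82.4 in siSRSF2), and TM7SF2 the lowest (0.532 and 0.598).

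Of the 8 genes that lead from acetyl-CoA to squalene, 5 rose, 1 fell and 2 did not pass the test (median log2 fold change 0.35). These were 62.5% higher and 12.5% lower, where 30.1% and 29.0% of all tested genes were. FDFT1, the squalene synthase that commits farnesyl units to sterols, rose most. It was at 36.6, 36.3 and 36.8 CPM in WT and at 88.0, 93.2 and 89.4 CPM in siSRSF2, with no overlap (log2 fold change 1.30, SE 0.050, edgeR adjusted p = 1.39e-17). MVK, the mevalonate kinase, was at 5.31, 5.52 and 4.78 CPM in WT and at 10.0, 10.1 and 9.84 CPM in siSRSF2. This was a rise of 1.92-fold with no overlap (edgeR adjusted p = 1.81e-08). MVK shares 306 exon bases with MMAB on the opposite strand, which itself rose by 0.87 log2 units (edgeR adjusted p = 2.42e-09). Whether reads were assigned by strand is unknown, so reads in shared bases could belong to either gene.

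MVD, which decarboxylates mevalonate diphosphate, rose 1.53-fold, from 6.13 ± 0.540 to 9.35 ± 0.874 CPM (SD, n = 3 per group; edgeR adjusted p = 2.58e-05). FDPS, the farnesyl diphosphate synthase, rose 1.35-fold, from 64.6 ± 0.772 to 87.4 ± 4.55 CPM (edgeR adjusted p = 2.46e-08). It shares 693 exon bases, 18.6% of its length, with RUSC1-AS1 on the opposite strand, which rose by 0.46 log2 units. IDI1, which isomerises the isoprenoid unit, was at 8.79, 8.67 and 8.37 CPM in WT and at 9.61, 11.0 and 10.2 CPM in siSRSF2. IDI1 shares 17.9% of its exon bases with IDI2-AS1 (0.04 log2 units). Its groups did not overlap, but the rise was small (log2 fold change 0.26, SE 0.095, edgeR adjusted p = 0.0228). IDI1 did not pass without WT replicate 2 (adjusted p = 0.0529), without WT replicate 3 (0.0743), without siSRSF2 replicate 2 (0.0932), in DESeq2 (0.0525), without the filter on low counts (0.191) or against a change of 1.2-fold (0.418), each from a fit across all genes.

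HMGCS1, the synthase that makes HMG-CoA and a standard SREBP target, was nearly level. It was at 64.8, 60.0 and 60.1 CPM in WT and at 61.7, 61.8 and 62.8 CPM in siSRSF2, and the siSRSF2 values lay within the WT range (log2 fold change 0.01, SE 0.051, edgeR adjusted p = 0.863). HMGCS1 shares 703 exon bases with an opposite-strand gene. PMVK, the phosphomevalonate kinase, overlapped between groups as well (12.7 ± 1.67 and 13.8 ± 0.843 CPM; edgeR adjusted p = 0.298). Both passed as higher with scaling by library totals (log2 fold changes 0.14 and 0.25, edgeR adjusted p = 0.0239 and 0.0249). ACAT2, the cytosolic thiolase of the first step, fell to 80.9% of WT, from 28.3 ± 1.42 to 22.8 ± 1.60 CPM (log2 fold change -0.31, edgeR adjusted p = 0.000375), and did not pass against a change of 1.2-fold (edgeR adjusted p = 0.193). ACAT2 shares 43.0% of its exon bases with SOD2 and 9.24% with TCP1, both on the opposite strand and both lower in siSRSF2 (log2 fold changes -0.49 and -0.85), so its value is uncertain.

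Of the 10 genes from squalene to cholesterol, 3 rose, 5 fell and 2 did not pass (median -0.23 on the log2 scale). These were 30% higher and 50% lower, where 30.1% and 29.0% of all tested genes were. Against a change of 1.2-fold, 3 were higher and 2 lower. NSDHL, which removes a carboxyl group during C4 demethylation, fell most of the 33 genes. It was at 20.3, 21.8 and 18.9 CPM in WT and at 10.0, 9.03 and 9.32 CPM in siSRSF2 (log2 fold change -1.11, SE 0.084, edgeR adjusted p = 9.51e-12). The highest siSRSF2 library was well below the lowest WT library. The genes acting just before and after it in the same demethylation moved the opposite way. MSMO1, the C4-methyl sterol oxidase, was at 4.39, 3.94 and 3.77 CPM in WT and at 10.2, 9.70 and 7.39 CPM in siSRSF2 (log2 fold change 1.17, SE 0.13, edgeR adjusted p = 1.11e-08). HSD17B7, the 3-ketosteroid reductase, was at 3.86, 4.71 and 4.66 CPM in WT and at 8.83, 9.45 and 9.35 CPM in siSRSF2 (log2 fold change 1.07, SE 0.11, edgeR adjusted p = 8.15e-09). The groups overlapped in neither gene. A pseudogene, HSD17B7P2, had between 11 and 35 counts per library, against 184 to 364 for HSD17B7. The handling of reads that match both is unknown.

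LSS, which closes the sterol rings to give lanosterol, rose 1.49-fold, from 10.9 ± 0.394 to 16.2 ± 0.297 CPM (SD, n = 3 per group; edgeR adjusted p = 7.79e-07). CYP51A1, the lanosterol demethylase, fell from 54.1 ± 1.04 to 40.1 ± 2.23 CPM (log2 fold change -0.43, edgeR adjusted p = 1.95e-07). It shares 78.8% of its exon bases with LRRD1 on the same strand, and the counts of both genes were close in every library (2524 and 2506 in WT replicate 1, 1053 and 1033 in siSRSF2 replicate 1), so the value cannot be given to CYP51A1 alone. DHCR7, the last reductase of the Kandutsch-Russell route, fell to 75.9% of WT (14.9 ± 1.64 to 11.3 ± 0.597 CPM, edgeR adjusted p = 0.000473). EBP, the sterol isomerase, fell to 80.3% of WT (38.5 ± 0.470 to 30.9 ± 1.81 CPM, edgeR adjusted p = 5.40e-05). Neither passed against a change of 1.2-fold (edgeR adjusted p = 0.0502 and 0.137).

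SQLE, the squalene epoxidase and a rate-limiting step, was at 13.4, 14.1 and 16.5 CPM in WT and at 10.7, 13.8 and 11.6 CPM in siSRSF2. The groups overlapped, with the highest siSRSF2 library inside the WT range (log2 fold change -0.28, SE 0.098, edgeR adjusted p = 0.0162). The fall did not pass without WT replicate 3 (log2 fold change -0.19, edgeR adjusted p = 0.142), without siSRSF2 replicate 1 (-0.21, 0.103), with scaling by library totals (-0.15, 0.202) or against a change of 1.2-fold (0.323). SC5D, the C5 desaturase, stood at 6.20 ± 0.0633 CPM in WT and 5.52 ± 0.418 CPM in siSRSF2 and did not pass (edgeR adjusted p = 0.217). TM7SF2, a C14 sterol reductase, had between 56 and 91 counts per library and did not pass either (1.81 ± 0.189 and 2.04 ± 0.110 CPM, edgeR adjusted p = 0.481). STARD4, which carries cholesterol between membranes, rose 1.55-fold (8.89 ± 0.887 to 13.8 ± 0.739 CPM, edgeR adjusted p = 1.58e-06) and shares 2.18% of its exon bases with STARD4-AS1.

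Summed over the 18 sterol enzyme genes, levels were 390, 393 and 398 CPM in WT and 443, 455 and 457 CPM in siSRSF2, a ratio of 1.15 between the means. The mean sums were 393.5 CPM in WT and 451.7 CPM in siSRSF2. FDFT1 alone gave 36.6 CPM and 90.2 CPM of them, so its rise was nearly as large as that of the sum. The single genes ranged in log2 fold change from -1.11 (NSDHL) to 1.30 (FDFT1).

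Of the 9 fatty acid genes, 4 rose, 2 fell and 3 did not pass the test (median log2 fold change 0.10). Among all tested genes, 30.1% were higher and 29.0% lower. The desaturase genes SCD and FADS1 rose, and FADS2 did not pass. SCD, which desaturates stearate and palmitate, was at 263.7, 266.9 and 286.9 CPM in WT and at 428, 488 and 410.0 CPM in siSRSF2, with no overlap (log2 fold change 0.70, SE 0.056, edgeR adjusted p = 4.93e-10). FADS1, the delta-5 desaturase of polyunsaturated fatty acids, was at 161, 158 and 167 CPM in WT and at 289.7, 297 and 284.5 CPM in siSRSF2 (log2 fold change 0.84, SE 0.044, edgeR adjusted p = 5.37e-15). FADS2, the delta-6 desaturase gene beside it on chromosome 11, was at 13.2, 13.3 and 15.3 CPM in WT and at 14.1, 13.3 and 16.5 CPM in siSRSF2, with overlap (log2 fold change 0.07, SE 0.090, edgeR adjusted p = 0.539). FADS1 and FADS2 share 490 exon bases on opposite strands, and mean counts were 8670 for FADS1 and 572 for FADS2. Reads of FADS1 in the shared bases could thus weigh on FADS2, so the FADS2 values are uncertain.

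ACLY and FASN fell slightly, ACACA did not pass the test, and ACACB rose. ACLY, which makes cytosolic acetyl-CoA from citrate, was at 192.5, 196.5 and 209.7 CPM in WT and at 155.9, 173 and 173.6 CPM in siSRSF2 (log2 fold change -0.25, SE 0.049, edgeR adjusted p = 7.88e-05). FASN, the fatty acid synthase, was at 196, 201 and 204 CPM in WT and at 165, 184 and 169.8 CPM in siSRSF2 (log2 fold change -0.21, SE 0.047, edgeR adjusted p = 0.000303). Neither gene's groups overlapped, but neither passed against a change of 1.2-fold (edgeR adjusted p = 0.477 and 0.777), and FASN did not pass with scaling by library totals (-0.08, edgeR adjusted p = 0.137). ACACA, the cytosolic acetyl-CoA carboxylase of synthesis, was level at 147 ± 0.817 and 143 ± 8.77 CPM (log2 fold change -0.03 with SE 0.048, edgeR adjusted p = 0.586). ACACB, the mitochondrial-surface carboxylase whose malonyl-CoA restrains fatty acid oxidation, was at 10.4, 8.67 and 8.45 CPM in WT and at 20.5, 21.2 and 21.7 CPM in siSRSF2. It rose 2.31-fold with no overlap (log2 fold change 1.21, SE 0.086, edgeR adjusted p = 2.94e-12).

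ELOVL6, which extends palmitate, was at 17.9, 17.8 and 16.3 CPM in WT and at 21.2, 18.1 and 21.1 CPM in siSRSF2 (log2 fold change 0.21, SE 0.078, edgeR adjusted p = 0.0220). The lowest siSRSF2 library lay close to the highest WT library. The rise did not pass without WT replicate 3 (adjusted p = 0.114), without siSRSF2 replicate 1 (0.0894) or without siSRSF2 replicate 3 (0.0843), nor without the filter on low counts (0.200) or against a change of 1.2-fold (0.640), each from a fit across all genes. ELOVL5, which extends polyunsaturated chains, was at 64.6 ± 1.54 and 69.5 ± 2.01 CPM. Its groups did not overlap, yet it missed the threshold (log2 fold change 0.10, SE 0.049, edgeR adjusted p = 0.0712), which it passed with scaling by library totals (0.23, edgeR adjusted p = 0.000263) and over genes at a mean of 1 CPM or more (0.16, edgeR adjusted p = 0.00711).

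The summed level of the 9 fatty acid genes was 1086 ± 30.5 CPM in WT and 1341 ± 66.8 CPM in siSRSF2 (SD, n = 3 per group; ratio 1.23). The groups did not overlap, and SCD alone gave 272.5 ± 12.6 and 442 ± 40.8 CPM of the sums. FADS1 gave means of 162.3 CPM in WT and 290.3 CPM in siSRSF2. Without SCD and FADS1, the sum of the other 7 genes was lower in siSRSF2, at means of 651.6 CPM in WT and 608.9 CPM in siSRSF2 (ratio 0.934). Its libraries ranged from 640.2 to 667.2 CPM in WT and from 579.3 to 633.3 CPM in siSRSF2. The rise of the summed level was thus not seen without SCD and FADS1.

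Ratios of 2 genes within each library were compared for 6 pairs. ACACA exceeded ACACB by 4.01 ± 0.167 log2 units of counts in WT and by 2.76 ± 0.0712 in siSRSF2 (SD, n = 3 per group), a difference of -1.25 (two-sided exact permutation test, p = 0.1, adjusted p = 0.2). Per exon length, ACACA was 17.9 times as high as ACACB in WT and 7.57 times as high in siSRSF2. The ratio of FADS2 to FADS1 fell by 0.77 log2 units, from -3.54 ± 0.0851 to -4.31 ± 0.188 (exact permutation p = 0.1, adjusted p = 0.2). Because these genes share exon bases, this ratio is uncertain. The ratio of ACACA to FASN differed by 0.18 log2 units and its groups did not overlap (exact permutation p = 0.1, adjusted p = 0.2). With 3 against 3 libraries 0.1 is the smallest p possible, so none of the 6 pairs could pass 0.05.

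The other 3 pairs overlapped between groups. SREBF2 against SREBF1 differed by -0.08 log2 units (SE 0.080, exact permutation p = 0.4, adjusted p = 0.48). INSIG1 against INSIG2 differed by -0.14 (SE 0.0996, exact permutation p = 0.4, adjusted p = 0.48), and ELOVL6 against ELOVL5 by 0.11 (SE 0.12, exact permutation p = 0.5, adjusted p = 0.5). No difference in change between the genes of these 3 pairs was detected with 3 libraries a group.

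**Figure D3:**
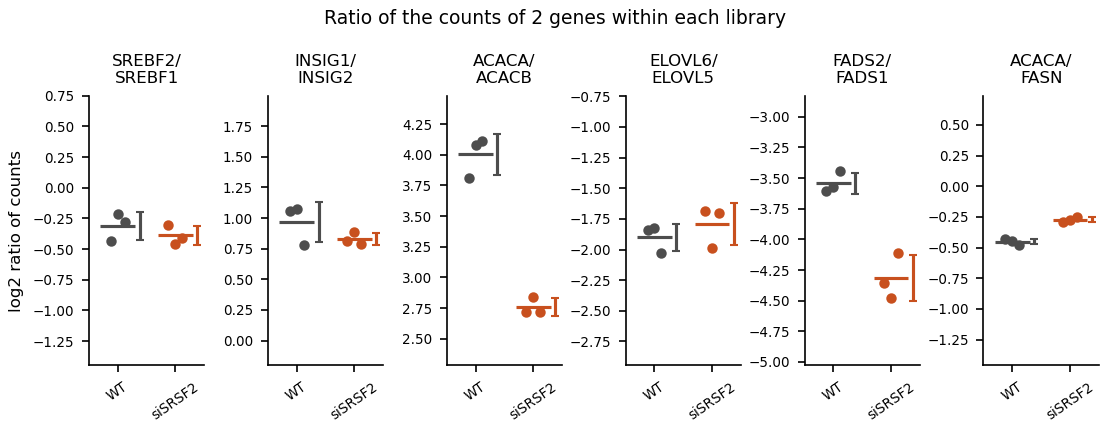
Log2 ratio of the counts of 2 genes in each library (points), with the group mean (line) and SD (bar, n = 3), for 6 pairs; every panel spans the same range. ACACA/ACACB, FADS2/FADS1 and ACACA/FASN separate the groups, and the other 3 pairs overlap.

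Across the 33 genes, the change was lower where the WT level was higher (Spearman's rho -0.41 between log2 fold change and WT RPKM, n = 33 genes). The same measure over all 23689 tested genes was -0.44. Both measures use the WT libraries, and genes are not independent replicates, so this is a description.

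Other genes of lipid metabolism were read from 8 lists of 92 genes, 88 of them tested, of which 40 rose, 30 fell and 18 did not pass (45.5% and 34.1%; 30.1% and 29.0% of all tested genes). Further genes of SREBP control were mostly lower, 8 of 13, with 3 higher (median log2 fold change -0.38). C12orf49 (SPRING1), a Golgi factor that licenses the site-1 protease, fell from 28.0 ± 1.22 to 16.6 ± 2.13 CPM. ERLIN1, a sterol-sensing scaffold of the endoplasmic reticulum, fell to 74.7% and FBXW7, the ubiquitin ligase adaptor that targets nuclear SREBPs, to 77.1% of WT. LPIN1, a phosphatidate phosphatase, rose 2.07-fold. Each of these 4 passed at an edgeR adjusted p of 6.88e-07 or lower.

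Of 11 further sterol and isoprenoid genes, 7 fell and 2 rose (63.64% and 18.18%, median -0.41). Among all tested genes, 29.0% were lower and 30.1% higher. NUS1 (52.2 ± 1.75 to 24.3 ± 1.32 CPM), a subunit of the dolichol-making prenyltransferase, and PDSS1 (13.1 ± 0.385 to 5.05 ± 0.574 CPM), which makes the coenzyme Q side chain, fell to 46.6% and 38.4% of WT. FAXDC2, a member of the sterol hydroxylase family, rose 1.41-fold. Each of these 3 passed at an edgeR adjusted p of 2.32e-08 or lower.

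Cholesterol traffic genes were higher in 6 and lower in 2 of 11 cases (54.55% and 18.18%, median 0.20). Among all tested genes, 30.1% were higher and 29.0% lower. OSBPL2, an oxysterol-binding protein relative, rose 2.41-fold, GRAMD1A, a sterol transporter at membrane contacts, 1.85-fold, and SCARB1, the HDL receptor, 1.37-fold. NCEH1, a cholesteryl ester hydrolase, fell to 45.4% of WT. Of 8 liver X receptor (LXR) genes and targets, which answer to oxysterols and promote cholesterol efflux, 6 rose and 2 fell (median 0.49). These were 75% and 25% of that short list. The efflux transporter gene ABCA1 rose from 3.91 ± 0.428 to 19.7 ± 2.07 CPM and ABCG1 from 0.157 ± 0.0679 to 1.07 ± 0.334 CPM, the latter from counts of 8, 10 and 4 to 24, 56 and 30. RXRA, the partner of the LXRs, rose 1.58-fold, while LPCAT3, a phospholipid-remodelling target, fell to 68.2% of WT. These 8 named genes passed at an edgeR adjusted p of 2.33e-06 or lower.

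Genes of fatty acid supply were 4 higher and 4 lower of 11 tested (36.36% each way, median 0.15). The shares of all tested genes were 30.1% higher and 29.0% lower. ACSS2, which makes acetyl-CoA from acetate, rose 3.82-fold (2.42 ± 0.246 to 9.25 ± 0.976 CPM). MLXIPL, which encodes the glucose-responsive factor ChREBP, rose from counts of 2, 8 and 8 to 70, 124 and 90 (log2 fold change 4.42), while its relative MLXIP fell to 83.3% of WT. ACSL4, which activates arachidonate, fell from 193 ± 4.02 to 117 ± 1.83 CPM. Further elongation and desaturation genes were 4 higher and 4 lower of 10 tested (40% each way, median 0.18). The dehydratase genes of elongation HACD2 and HACD3 fell to 51.9% and 64.3% of WT, and the reductase TECR and the desaturase SCD5 rose 1.41-fold and 1.86-fold. MLXIP did not pass against a change of 1.2-fold (edgeR adjusted p = 0.395); in the main test these 8 named genes passed at 3.12e-05 or lower.

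**Figure D4:**
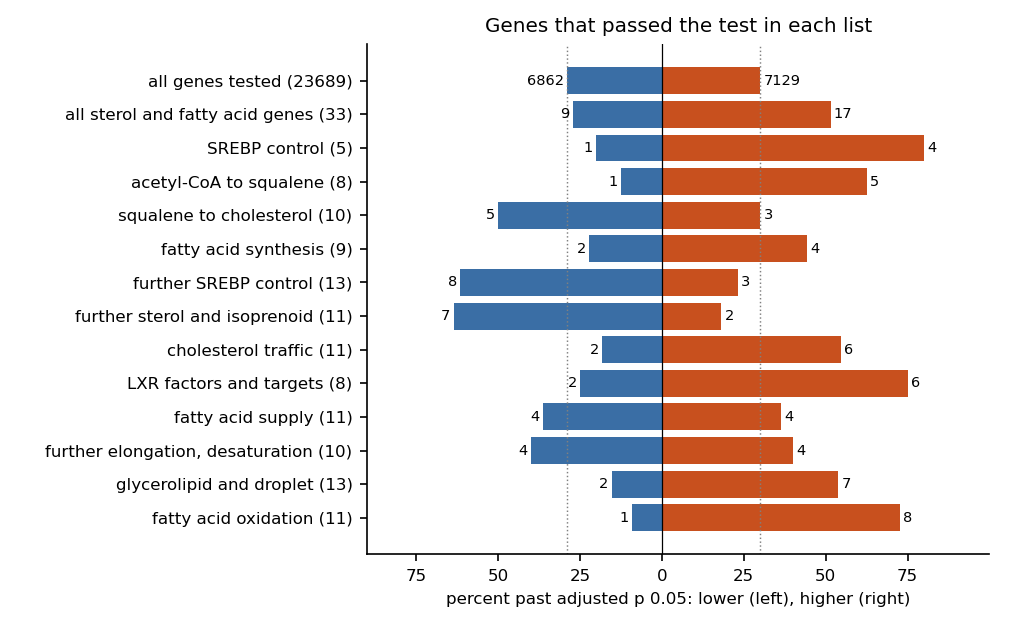
Percent of the tested genes of each list that passed an edgeR adjusted p of 0.05, lower in siSRSF2 to the left and higher to the right, with counts at the bars, list sizes in brackets and dotted lines at the share of all tested genes (29.0% and 30.1%). Lists of further SREBP control and of further sterol and isoprenoid genes reach farthest to the left (8 of 13 and 7 of 11), and 4 of 5 genes of SREBP control lie to the right.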

How the data were processed

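The table deposited by the authors holds unnormalized read counts for each gene and its exon length. The submitters' processing notes name HISAT2 2.0.5, featureCounts 1.5.0-p3 and mm10; the last is a mouse build, whereas the table holds human genes. Of 36027 names found once in GENCODE 29 (GRCh38), 98.1% overlapped the same place, and all 33 members did. Settings for strand, multi-mapping and overlapping genes: not given in the sources used here. Of counts between 1 and 10, 78.3% to 81.7% per library were even; whether mates were counted separately is unknown.

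The tests used edgeR 4.0.16 under R 4.3.3 (filterByExpr with a minimum count of 10, TMM, robust quasi-likelihood F test on group alone, Benjamini-Hochberg adjustment over all 23689 genes at 0.05). Each SE is the fold change (log2) over the square root of F. Pair ratios used a prior count of 0.5 and exact permutation (scipy 1.17.1). Named genes were SRSF2, all 33 members and, per list of other genes, up to 4 with the smallest p; some items are not reported here. Members, lists and motifs were chosen with earlier results of these data known. Replicate pairs differed by more than sampling noise (chi-square per gene 3.83 to 8.75). The pipeline was tested on simulated data. Alternatives were DESeq2 1.42.0, limma 3.58.1 voom, RLE factors, library totals, other filters, a non-robust fit, a replicate block, leaving out each library and a test against 1.2-fold.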

Additional observations from a re-analysis of the deposited data

How the results depend on the processing

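Of the 26 sterol and fatty acid genes that passed, 21 kept direction and call in all 14 alternatives other than the test against a change of 1.2-fold, and 17 in all 15. SCAP, IDI1, SQLE, FASN and ELOVL6 were the exceptions. With the 1.2-fold test, 15 genes were higher and 2 lower (CYP51A1 and NSDHL), where 23.5% and 20.9% of all tested genes were called. Scaling by library totals moved the median of all genes by 0.13 and raised the share of calls that were higher from 51.0% to 60.9%, and among the 33 genes from 65.4% to 76.9% (20 higher, 6 lower). The median of the 33 genes was then 0.34, and it was 0.26 over genes at a mean of 1 CPM or more, 0.14 without the filter on low counts, and 0.17 to 0.24 when single libraries were left out. Signs turned only in genes that did not pass: HMGCS1 (-0.0631 without the filter, and -0.00772 to 0.0493 when single libraries were left out, below 0 without WT replicate 2 or 3), ACACA (0.0978 with library totals, 0.0187 at a mean of 1 CPM or more, and -0.0784 to 0.0111 when single libraries were left out, above 0 without siSRSF2 replicate 1) and FADS2 (-0.00635 without the filter, and from -0.0277 without siSRSF2 replicate 3 to 0.142 without WT replicate 3); the cause was not tested.

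Libraries of the same replicate number showed no shared deviation, with correlations of deviations of 0.0133, -0.0472 and -0.0457. Between libraries of different number they were -0.0224 to 0.0662. Whether the samples were prepared in pairs cannot be told from this. With the replicate number as a block, 17 of the 33 genes were higher and 9 lower, as without it. TM7SF2, ABCG1 and MLXIPL had low counts, which limits their precision.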

Other observations

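Genes of fatty acid oxidation, the opposite process to synthesis, were higher in 8 of 11 tested cases and lower in 1 (median log2 fold change 0.34; 30.1% and 29.0% of all tested genes were higher and lower). PPARA, the nuclear receptor that drives oxidation genes, rose from 2.86 ± 0.451 to 11.5 ± 1.34 CPM (SD, n = 3 per group; edgeR adjusted p = 3.56e-13), and its coactivator gene PPARGC1A from 5.88 ± 0.389 to 15.9 ± 1.40 CPM. MLYCD, which removes malonyl-CoA, rose 1.80-fold, and HADHA, a subunit of the mitochondrial trifunctional protein, 1.39-fold.

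Glycerolipid and lipid droplet genes were higher in 7 of 13 cases and lower in 2 (53.85% and 15.38%, median 0.58). Among all tested genes, 30.1% were higher and 29.0% lower. PLIN2, a coat protein of lipid droplets, rose from 44.3 ± 4.41 to 112 ± 6.40 CPM, and AGPAT1, an acyltransferase of phosphatidate synthesis, rose 1.60-fold. GPAM, the mitochondrial acyltransferase of the step before it, fell from 24.8 ± 0.552 to 7.42 ± 0.527 CPM (edgeR adjusted p = 5.80e-16), the lowest ratio (30.0% of WT) among the 88 other lipid genes tested. AGPAT5 fell to 62.1% of WT.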
